A study of Mus musculus with 16 samples.

Results

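The genes described here are 9 genes of dopamine-receptor signalling and peptide transmission that are best known from the projection neurons of the striatum. They are the receptors Drd1, Drd2, Adora2a and Gpr6, the intracellular signalling proteins Ppp1r1b and Pde10a, and the peptide precursors Penk, Pdyn and Tac1. They were chosen by gene symbol, and each symbol matched 1 Ensembl gene of the 41388 listed. All 9 passed the filter on low counts, which kept 15103 genes for testing.

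The RNA came from primary cortical neurons of Swiss Webster mouse embryos (E16) that carried 2 lentiviruses, one for huntingtin exon 1 and one for a short hairpin RNA, given at day 5 in vitro, with harvest at day 10. The 16 libraries fell into 4 groups of 4 libraries each. The first expressed exon 1 with 72 glutamines (72Q, the length class that causes Huntington's disease) together with Twist1 shRNA 1, and the second expressed 72Q with Twist1 shRNA 2. The third, called the 72Q control, expressed 72Q with an shRNA against luciferase. The fourth expressed exon 1 with 25 glutamines (25Q, a length of the normal range) with the same luciferase shRNA, so that all groups carried a huntingtin fragment and no untransduced cells or 25Q cells with Twist1 shRNA were analysed here. Each of the 4 experiment labels, exp107, exp108, exp109a and exp109b, held 1 library of every group. The labels exp109a and exp109b share a number and may be parts of 1 experiment. Counts over 4 experiments below are counts of these labels. The labels do not say whether the libraries of a group came from separate cultures beyond that experiment label, so p-values measure only how these libraries varied. The labels state neither the promoter of the huntingtin virus nor the share of cells transduced.

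In the striatum, dopamine acts on projection neurons of a direct and an indirect pathway. Neurons of the direct pathway carry the D1 receptor (Drd1), which couples to stimulatory G proteins and raises cyclic AMP, and make dynorphin (Pdyn) and substance P (Tac1). Neurons of the indirect pathway carry the D2 receptor (Drd2), which lowers cyclic AMP, and an adenosine receptor (Adora2a) and the orphan receptor Gpr6, which raise it, and make enkephalin (Penk). Both kinds contain DARPP-32 (Ppp1r1b), which inhibits protein phosphatase 1 once protein kinase A has phosphorylated it, and the cyclic nucleotide phosphodiesterase PDE10A (Pde10a). Loss of several of these transcripts from the striatum is a known feature of Huntington's disease and its mouse models. In cortex most of the same genes are used by smaller sets of neurons.

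The bases upstream of the start sites are shown for Gpr6, Drd1 and Pdyn, the members with the lowest log2 fold changes between 72Q control and 25Q cells. Each window is the 250 bases before a RefSeq start on GRCm38.p6, read 5′ to 3′ on the gene's strand. Capitals mark the cyclic AMP response element, TGACGTCA.
Gpr6 (chr10:41072291-41072540, minus strand): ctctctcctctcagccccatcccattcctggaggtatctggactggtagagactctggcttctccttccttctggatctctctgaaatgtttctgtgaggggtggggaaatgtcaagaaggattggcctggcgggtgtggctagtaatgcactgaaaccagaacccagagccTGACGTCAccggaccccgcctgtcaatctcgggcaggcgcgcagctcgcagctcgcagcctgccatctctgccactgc
Drd1 (chr13:54055659-54055908, minus strand): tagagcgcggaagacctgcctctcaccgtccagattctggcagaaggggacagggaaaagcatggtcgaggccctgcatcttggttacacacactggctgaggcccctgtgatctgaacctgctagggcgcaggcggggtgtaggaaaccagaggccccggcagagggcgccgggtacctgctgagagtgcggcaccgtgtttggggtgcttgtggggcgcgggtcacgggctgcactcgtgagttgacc
Pdyn (chr2:129699939-129700188, minus strand): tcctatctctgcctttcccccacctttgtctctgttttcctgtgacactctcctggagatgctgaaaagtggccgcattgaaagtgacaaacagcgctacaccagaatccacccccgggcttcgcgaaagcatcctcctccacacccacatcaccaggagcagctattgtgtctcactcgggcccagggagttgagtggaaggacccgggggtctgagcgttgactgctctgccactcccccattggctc
The 3 motifs named here were searched on both strands of the windows of 32851 RefSeq starts. The E-box CANNTG, the letters bound by basic helix-loop-helix proteins such as Twist1, was in 66.2% of all windows and in none of these 3. TGACG, the core of the cyclic AMP response element, was in 17.8% of all windows. The whole element TGACGTCA, which holds TGACG on each strand, was in 1.55%. The Gpr6 window held it 78 to 71 bases before the start, and the Drd1 and Pdyn windows held neither form. RefSeq windows were matched for 6 members, also including Drd2, Tac1 and Pde10a. A second RefSeq start gives Drd1, Pdyn and Pde10a another window each. The second Drd1 window held 2 E-boxes and the second Pdyn window none. The Pde10a windows held 1 and 2 E-boxes, the Tac1 window held 2 E-boxes and 2 TGACG, and the Drd2 window held none of the motifs. The other motifs were in none of the second windows or Pde10a windows. The Pde10a starts lay 276373 and 324613 bases from the deposited 5′ end of the gene. The second Drd1 start lay 878 bases from that end and the second Pdyn start 1186 bases. For Tac1 the distance was 182 bases and for Drd2 259 bases, while the 3 windows shown lay within 100 bases. A motif match describes letters and no binding.

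Library totals lay between 15814525 and 19533034 reads. Twist1, the gene aimed at, averaged 1.57 ± 0.452 CPM (SD, n = 4 in each group) in shRNA 1 and 1.64 ± 0.403 CPM in shRNA 2 libraries, against 4.15 ± 0.763 CPM in 72Q control and 0.271 ± 0.225 CPM in 25Q libraries. It fell against the 72Q control, at a log2 fold change of -1.35 ± 0.20 (SE, adjusted p = 1.52e-06) with shRNA 1 and -1.29 ± 0.19 (SE, adjusted p = 2.97e-06) with shRNA 2. CPM here are relative to library totals scaled by TMM factors. Cortical excitatory markers were abundant in every group, with Slc17a7 at a mean of 262 CPM in 72Q control and 536 CPM in 25Q libraries. GABAergic markers were present as well (Gad2, 48.2 CPM in 72Q control and 54.5 CPM in 25Q). Markers of striatal projection neurons outside the members were mixed in level. The factors Isl1, Ebf1 and Six3 averaged at most 2.07 CPM in any group, and Rarb averaged 7.23 CPM in 72Q control and 5.46 CPM in 25Q libraries. Gnal, a G protein subunit used by striatal dopamine receptors, averaged 243.9 CPM in 72Q control and 349 CPM in 25Q libraries. Bcl11b, which cortical neurons make as well, averaged 41.2 CPM in 72Q control and 65.6 CPM in 25Q libraries. Dlx1, shared with GABAergic neurons, averaged 25.6 CPM in 72Q control and 37.1 CPM in 25Q libraries. Per kilobase of gene length, Gpr6 stood at 1.27 RPKM in 72Q control and 25.6 RPKM in 25Q cells, above 23% and 84% of tested genes in those groups. Pde10a stood at 6.33 RPKM in 72Q control and 7.66 RPKM in 25Q cells, above 53% and 57% of tested genes. The other 7 members lay between 0.332 and 1.40 RPKM in 72Q control and between 0.654 and 2.77 RPKM in 25Q cells, above at most 25% and 35% of tested genes in those groups. The smallest count behind any member was 12 reads (Pdyn, 72Q control of exp108; exact Poisson 95% interval 6.2 to 21, counting error only).

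Between 72Q control and 25Q cells the striatal-type genes were lower or unresolved, and none rose. Gpr6, Drd1, Pdyn, Ppp1r1b, Drd2 and Pde10a fell, and Penk, Tac1 and Adora2a did not pass the test. These 6 of 9 lower calls stand beside 27.8% of all tested genes called lower, 29.3% called higher and 57.1% called in either direction. Of all called genes, 51.4% were higher in 72Q control with TMM factors and 69.7% without scaling beyond library totals, and the median of all genes moved by 0.133 on the log2 scale between those settings. A call is an adjusted p under 0.05 in edgeR's quasi-likelihood test, adjusted over all 15103 genes by the Benjamini-Hochberg method. The median log2 fold change was -0.86 over the members and 0.030 over all tested genes. In 7 members the 72Q control library was lower in each of the 4 experiments, which held for 30.6% of tested genes. The libraries of the 2 groups did not overlap for 3 members, and for 38.3% of tested genes. These are bulk RNA samples, so that fewer cells of a type and less RNA per cell cannot be told apart.

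With Twist1 shRNA in 72Q cells several of these genes were higher than in the 72Q control. Drd1, Ppp1r1b, Penk and Tac1 rose with shRNA 1, and Pde10a fell. Its 4 higher calls and 1 lower call stand beside 22.7% of tested genes called higher, 23.6% called lower and 46.3% in either direction. With shRNA 2, 7 members rose (Drd1, Drd2, Adora2a, Ppp1r1b, Pde10a, Penk and Tac1) and none fell, where 20.2% of tested genes rose, 21.5% fell and 41.8% did either. Of all genes called with shRNA 2, 48.5% were higher with TMM factors and 65.3% without scaling beyond library totals. The median log2 fold change of the members was 0.53 with shRNA 1 and 0.72 with shRNA 2. Over all tested genes it was -0.0054 with shRNA 1 and 0.0015 with shRNA 2. In the shRNA 2 libraries all 9 members were higher than in the 72Q control of the same experiment in 4 of 4 experiments, and in the shRNA 1 libraries 6 were. That pattern held for 26.4% of tested genes with shRNA 2 and 27.3% with shRNA 1. Groups did not overlap for 5 members with shRNA 2 and 4 with shRNA 1, and for 22.4% and 29% of tested genes with those hairpins. The hairpin comparisons and the 72Q against 25Q comparison share the 72Q control libraries, so their values are given side by side and not as independent evidence.

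**Figure D1:**
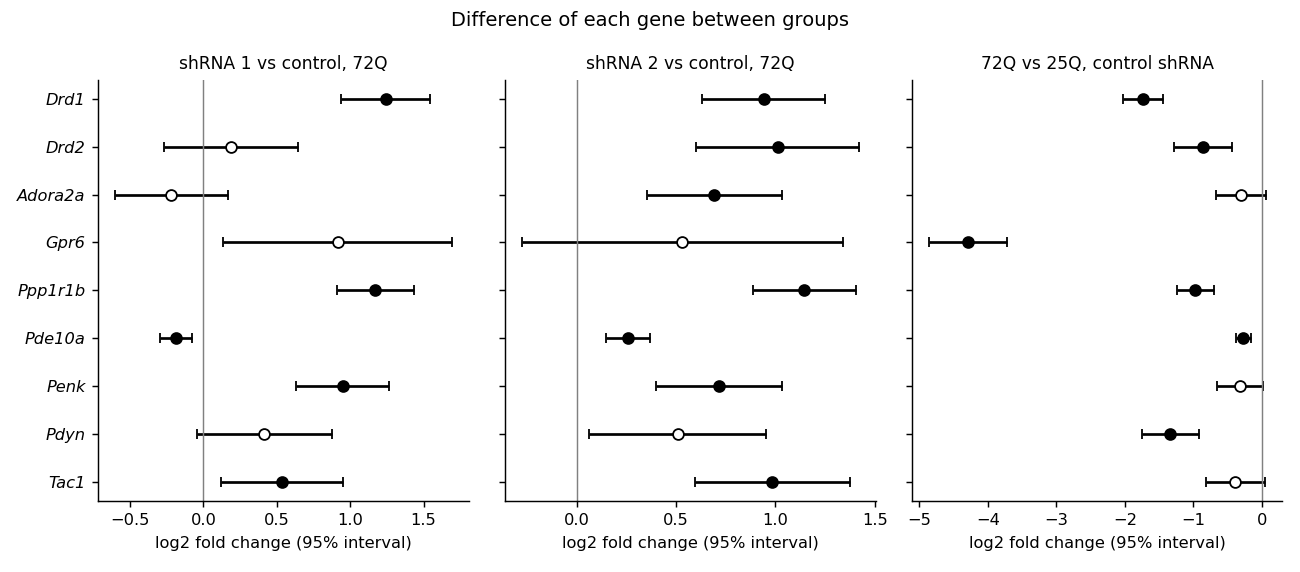
Log2 fold change of each of the 9 genes, with its 95% interval, for shRNA 1 against control in 72Q cells, shRNA 2 against control in 72Q cells, and 72Q against 25Q cells with control shRNA; filled points passed an adjusted p of 0.05. Gpr6 stands at -4.29 in the 72Q against 25Q panel, and every point of the shRNA 2 panel lies above 0.

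The values below are given in the order exp107, exp108, exp109a and exp109b. RNA of the D1 receptor was lower in 72Q control than in 25Q cells and was between those levels with both hairpins. Drd1 had 5.94, 5.06, 5.20 and 3.99 CPM in the shRNA 1 libraries and 5.00, 3.94, 4.14 and 3.29 CPM in the shRNA 2 libraries. It had 3.05, 1.28, 2.66 and 1.39 CPM in the 72Q control libraries, against 8.69, 6.60, 7.18 and 6.16 CPM in the 25Q libraries. All 4 groups were separate except that the hairpin groups overlapped each other, with the 72Q control lowest and 25Q highest in each experiment. The log2 fold change was -1.73 ± 0.14 (SE, adjusted p = 1.64e-11) for 72Q control against 25Q. Against the 72Q control, Drd1 rose by 1.24 ± 0.15 (SE, adjusted p = 4.72e-08) with shRNA 1 and by 0.94 ± 0.15 (SE, adjusted p = 8.96e-06) with shRNA 2. Against 25Q it was lower, at -0.49 ± 0.12 (SE, adjusted p = 0.00114) with shRNA 1 and -0.79 ± 0.13 (SE, adjusted p = 2.55e-06) with shRNA 2. The difference between hairpins was 0.30 (95% interval 0.034 to 0.57, adjusted p = 0.0535). The shRNA 1 library was the higher in all 4 experiments. Without the experiment block the call of shRNA 1 against 25Q ended (log2 fold change -0.49, adjusted p = 0.0551).

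RNA of the D2 receptor differed between hairpins. Drd2 had 1.82, 2.30, 2.77 and 2.18 CPM in the shRNA 1 libraries and 3.76, 3.94, 4.72 and 4.08 CPM in the shRNA 2 libraries. It had 2.38, 1.52, 2.32 and 1.81 CPM in the 72Q control libraries, against 2.78, 1.65, 5.83 and 4.83 CPM in the 25Q libraries. The 25Q libraries spread widely, from 1.65 CPM in exp108 to 5.83 CPM in exp109a, and overlapped the other groups, while shRNA 2 lay above all 72Q control and all shRNA 1 libraries. Drd2 fell in 72Q control against 25Q, at a log2 fold change of -0.86 ± 0.21 (SE, adjusted p = 0.000917). The log2 difference within an experiment was -0.22 in exp107, -0.11 in exp108, -1.29 in exp109a and -1.36 in exp109b. Against the 72Q control it rose with shRNA 2 by 1.01 ± 0.20 (SE, adjusted p = 0.000172), while with shRNA 1 the difference was 0.19 (95% interval -0.27 to 0.65, adjusted p = 0.517). The shRNA 1 level was lower than that of shRNA 2, at -0.82 ± 0.20 (SE, adjusted p = 0.000879). Against 25Q, shRNA 1 was lower, at -0.67 ± 0.20 (SE, adjusted p = 0.00639), and the shRNA 2 difference was 0.15 (95% interval -0.22 to 0.53, adjusted p = 0.472). The shRNA 1 call against 25Q ended without the 25Q library of exp109a (log2 fold change -0.47, adjusted p = 0.0688).

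The adenosine receptor Adora2a also was higher with shRNA 2 than with shRNA 1, with no resolved difference between 72Q control and 25Q. Adora2a had 2.06, 2.71, 2.20 and 1.497 CPM in the shRNA 1 libraries and 4.24, 5.14, 4.19 and 2.60 CPM in the shRNA 2 libraries. It had 2.19, 4.79, 1.92 and 1.24 CPM in the 72Q control libraries, against 3.13, 4.58, 2.21 and 2.48 CPM in the 25Q libraries. The exp108 libraries were the highest of every group, and all neighbouring groups overlapped. The log2 fold change of 72Q control against 25Q was -0.31 (95% interval -0.67 to 0.056, adjusted p = 0.141). Without the 72Q control library of exp108 it was -0.60 and passed (adjusted p = 0.00854). With shRNA 2, Adora2a rose against the 72Q control by 0.69 ± 0.17 (SE, adjusted p = 0.00115), in 4 of 4 experiments. With shRNA 1 the difference was -0.22 (95% interval -0.60 to 0.16, adjusted p = 0.361). Its level with shRNA 1 was lower than with shRNA 2, at -0.91 ± 0.17 (SE, adjusted p = 4.73e-05). Without the experiment block the rise with shRNA 2 was 0.66 and no longer passed (adjusted p = 0.147).

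Gpr6, a constitutively active receptor that raises cyclic AMP, had the lowest log2 fold change of all 15103 tested genes between 72Q control and 25Q cells. Gpr6 had 5.88, 3.22, 5.71 and 2.62 CPM in the shRNA 1 libraries and 5.59, 2.08, 3.76 and 1.80 CPM in the shRNA 2 libraries. It had 2.87, 1.34, 3.45 and 1.34 CPM in the 72Q control libraries, against 46.4, 54.7, 44.0 and 36.5 CPM in the 25Q libraries. Every 72Q library, with or without Twist1 shRNA, was below every 25Q library, while the 3 groups with 72Q overlapped. Gpr6 fell in 72Q control, at a log2 fold change of -4.29 ± 0.26 (SE, adjusted p = 6.79e-08), and its means were 2.25 ± 1.07 CPM in 72Q control and 45.4 ± 7.50 CPM in 25Q libraries. Against 25Q it was lower with the hairpins as well, at -3.38 ± 0.23 (SE, adjusted p = 2.03e-07) with shRNA 1 and -3.76 ± 0.24 (SE, adjusted p = 7.39e-08) with shRNA 2. With shRNA 1 it was higher than the 72Q control in 4 of 4 experiments, but the difference of 0.91 (95% interval 0.13 to 1.69, adjusted p = 0.0549) did not pass. With shRNA 2 the difference was 0.53 (95% interval -0.27 to 1.34, adjusted p = 0.278). The shRNA 1 difference did pass in 11 of 23 alternative fits. These included a fit to only the groups compared (log2 fold change 0.93, adjusted p = 4.12e-05), DESeq2 (log2 fold change 0.97, adjusted p = 0.005), a fit with no filter on low counts (log2 fold change 0.93, adjusted p = 2.19e-09) and a block by the titles' numbers (log2 fold change 0.92, adjusted p = 0.00244). The shRNA 2 difference passed in 2, with no filter on low counts (log2 fold change 0.54, adjusted p = 0.00218) and in the fit to only the groups compared (log2 fold change 0.52, adjusted p = 0.0139). The other 7 left out 1 library each, where the shRNA 1 difference passed without any of 7 libraries, which were shRNA 1 of exp108, shRNA 2 of exp107 or exp108, the 72Q control of exp109a, and 25Q of exp107, exp108 or exp109a. Its value over those 7 fits lay between 0.91 and 1.16 (adjusted p = 0.0011 to 0.0471).

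**Figure D2:**
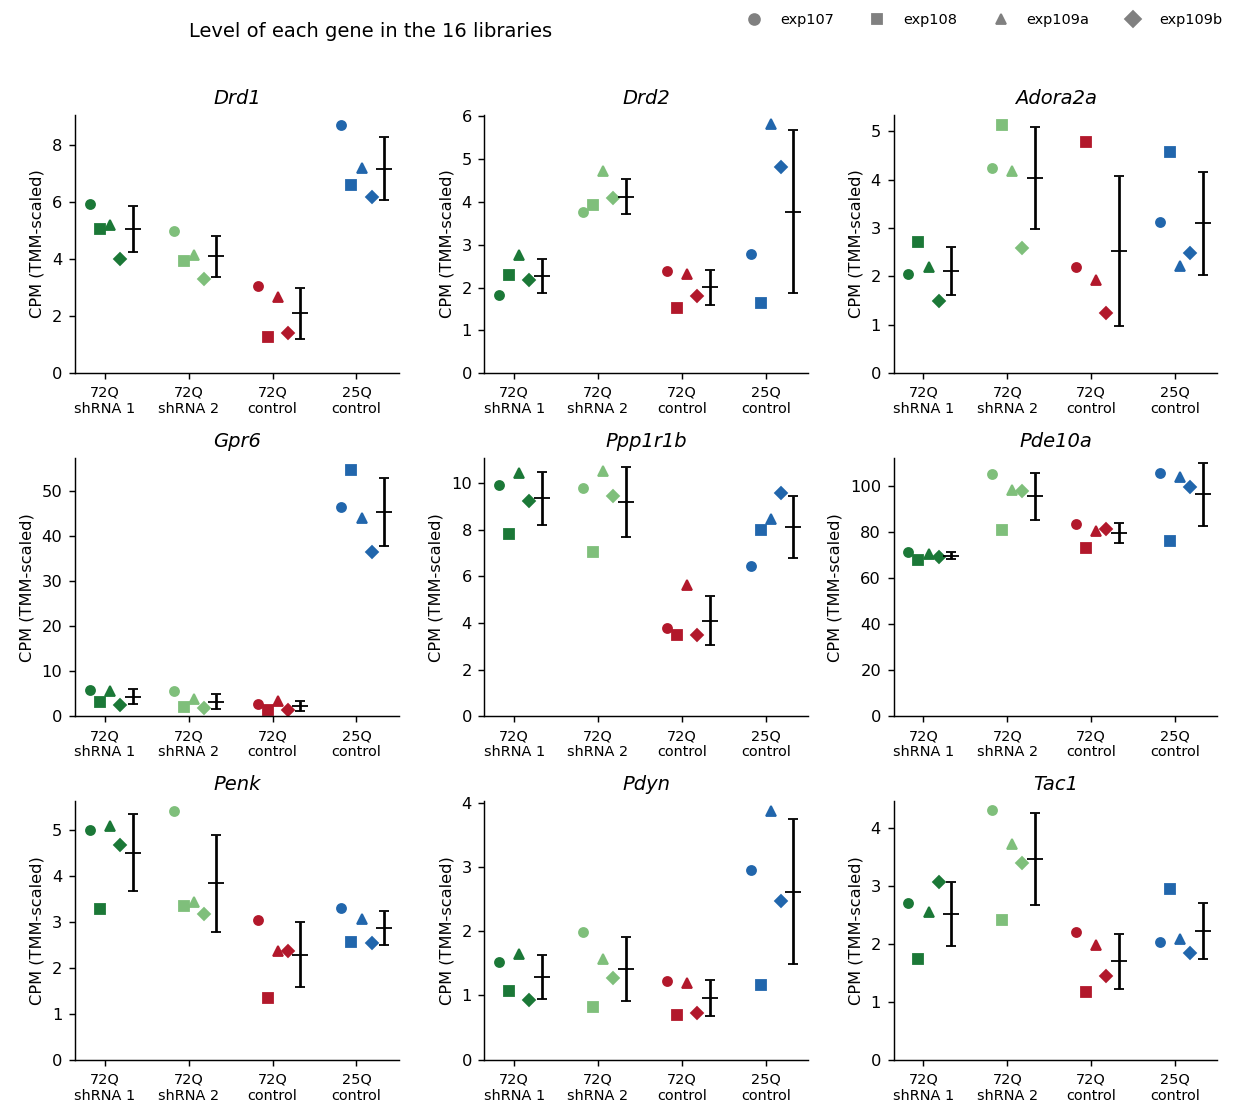
Level of each of the 9 genes in TMM-scaled CPM (linear axis from 0) in the 16 libraries, by group; marker shapes are the 4 experiments, and the black bar with whiskers is the mean ± SD (n = 4). The Gpr6 panel shows 36.5 to 54.7 CPM in 25Q libraries and at most 5.88 CPM in any 72Q library.

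Of the RNAs for intracellular proteins, that of DARPP-32 fell in 72Q control cells and rose with both hairpins. Ppp1r1b had 9.93, 7.83, 10.4 and 9.23 CPM in the shRNA 1 libraries and 9.78, 7.06, 10.5 and 9.44 CPM in the shRNA 2 libraries. It had 3.78, 3.50, 5.65 and 3.51 CPM in the 72Q control libraries, against 6.43, 8.01, 8.46 and 9.59 CPM in the 25Q libraries. The 72Q control libraries were below all others, and the remaining 3 groups overlapped. Ppp1r1b fell in 72Q control against 25Q, at a log2 fold change of -0.97 ± 0.13 (SE, adjusted p = 2.64e-07). Against the 72Q control it rose by 1.17 ± 0.13 (SE, adjusted p = 7.46e-09) with shRNA 1 and by 1.15 ± 0.13 (SE, adjusted p = 1.46e-08) with shRNA 2. Against 25Q the differences were 0.20 (95% interval -0.035 to 0.44, adjusted p = 0.138) with shRNA 1 and 0.18 (95% interval -0.059 to 0.41, adjusted p = 0.184) with shRNA 2. Those intervals allow a level up to 0.44 above 25Q on the log2 scale with shRNA 1 and 0.41 with shRNA 2. With upper-quartile factors both passed as higher than 25Q, where the log2 difference was 0.29 for shRNA 1 (adjusted p = 0.0327). It was 0.28 for shRNA 2 (adjusted p = 0.0346). Without scaling beyond library totals both passed as well, at 0.33 (adjusted p = 0.0153) for shRNA 1 and 0.38 (adjusted p = 0.00382) for shRNA 2. The shRNA 1 difference also passed without the 25Q library of exp109b, at 0.30 (adjusted p = 0.0452). The difference between hairpins was 0.026 (95% interval -0.20 to 0.25, adjusted p = 0.861). A gene on the opposite strand, 1700003D09Rik, shares 460 exon bases with Ppp1r1b and summed to at most 5 reads in a group.

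Pde10a, whose product breaks down cyclic AMP and cyclic GMP, was the most abundant member in reads and had small, opposite hairpin differences. Pde10a had 71.6, 67.8, 70.7 and 69.5 CPM in the shRNA 1 libraries and 105, 81.1, 98.2 and 98.1 CPM in the shRNA 2 libraries. It had 83.7, 73.4, 80.4 and 81.5 CPM in the 72Q control libraries, against 106, 76.2, 104 and 99.7 CPM in the 25Q libraries. The shRNA 1 libraries were below all others, while the 72Q control overlapped both shRNA 2 and 25Q. The exp108 libraries were the lowest of each group. Pde10a fell in 72Q control against 25Q, at a log2 fold change of -0.27 ± 0.054 (SE, adjusted p = 9.29e-05), or -0.13 without scaling beyond library totals (adjusted p = 0.0288). Relative to the 72Q control it fell with shRNA 1, at -0.19 ± 0.055 (SE, adjusted p = 0.00591), and rose with shRNA 2 by 0.26 ± 0.053 (SE, adjusted p = 0.000225). The shRNA 1 level was lower than that of shRNA 2, at -0.45 ± 0.054 (SE, adjusted p = 4.29e-08). Against 25Q it was lower with shRNA 1, at -0.45 ± 0.054 (SE, adjusted p = 2.49e-08), and with shRNA 2 the difference was -0.0094 (95% interval -0.12 to 0.10, adjusted p = 0.888). Without scaling beyond library totals the shRNA 2 difference from 25Q turned to 0.20 and passed (adjusted p = 0.00106). Without the experiment block the shRNA 1 difference from the 72Q control was -0.19 and did not pass (adjusted p = 0.135), nor did it with a block by the titles' numbers (adjusted p = 0.121).

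Among the RNAs of peptide precursors, that for enkephalin rose with both hairpins. Penk had 5.00, 3.27, 5.08 and 4.68 CPM in the shRNA 1 libraries and 5.43, 3.34, 3.43 and 3.18 CPM in the shRNA 2 libraries. It had 3.05, 1.34, 2.37 and 2.37 CPM in the 72Q control libraries, against 3.30, 2.57, 3.07 and 2.54 CPM in the 25Q libraries. Both hairpin groups were above the 72Q control, which overlapped 25Q. The difference of 72Q control against 25Q was -0.32 (95% interval -0.66 to 0.022, adjusted p = 0.104), lower in 4 of 4 experiments. Relative to the 72Q control, Penk rose by 0.95 ± 0.15 (SE, adjusted p = 7.21e-06) with shRNA 1 and by 0.72 ± 0.15 (SE, adjusted p = 0.00039) with shRNA 2. Against 25Q it was higher by 0.63 ± 0.15 (SE, adjusted p = 0.000678) with shRNA 1 and by 0.40 ± 0.15 (SE, adjusted p = 0.0233) with shRNA 2. The shRNA 2 call against 25Q ended without any of 4 libraries, shRNA 2 of exp107 or exp108 and 25Q of exp107 or exp109b (log2 fold changes 0.29 to 0.36, adjusted p = 0.0663 to 0.146). It ended too without the experiment block, at 0.40 (adjusted p = 0.126), with a block by the titles' numbers, at 0.38 (adjusted p = 0.0849), and in DESeq2, at 0.41 (adjusted p = 0.0536). Without scaling beyond library totals it was 0.60 (adjusted p = 0.000765). A830012C17Rik on the opposite strand shares 233 exon bases with Penk and summed to at most 2 reads in a group.

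Prodynorphin RNA fell in 72Q control, and its hairpin differences were not resolved. Pdyn had 1.53, 1.07, 1.64 and 0.936 CPM in the shRNA 1 libraries and 1.99, 0.821, 1.57 and 1.27 CPM in the shRNA 2 libraries. It had 1.22, 0.700, 1.19 and 0.723 CPM in the 72Q control libraries, against 2.95, 1.16, 3.86 and 2.48 CPM in the 25Q libraries. The 25Q library of exp108 was the lowest of its group and overlapped the others, and the remaining 25Q libraries were above every 72Q library. Pdyn fell in 72Q control against 25Q, at a log2 fold change of -1.34 ± 0.20 (SE, adjusted p = 1.75e-06). Against the 72Q control it was higher in 4 of 4 experiments with each hairpin, but the differences of 0.41 (95% interval -0.045 to 0.87, adjusted p = 0.135) with shRNA 1 and 0.51 (95% interval 0.064 to 0.95, adjusted p = 0.0609) with shRNA 2 did not pass. The shRNA 2 difference passed with upper-quartile factors (log2 fold change 0.55, adjusted p = 0.0428) and without scaling beyond library totals (log2 fold change 0.58, adjusted p = 0.0298). It passed also without the shRNA 2 library of exp109a (log2 fold change 0.64, adjusted p = 0.0418) and without the 25Q library of exp108 (log2 fold change 0.51, adjusted p = 0.0474). Against 25Q, Pdyn was lower, at -0.93 ± 0.19 (SE, adjusted p = 0.000157) with shRNA 1 and -0.83 ± 0.19 (SE, adjusted p = 0.000314) with shRNA 2.

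Tac1, the precursor of substance P and neurokinin A, rose with both hairpins. Tac1 had 2.70, 1.74, 2.54 and 3.06 CPM in the shRNA 1 libraries and 4.30, 2.41, 3.71 and 3.39 CPM in the shRNA 2 libraries. It had 2.19, 1.17, 1.98 and 1.445 CPM in the 72Q control libraries, against 2.03, 2.93, 2.08 and 1.84 CPM in the 25Q libraries. The shRNA 2 libraries were above all 72Q control libraries, and the other groups overlapped. In exp108 the 25Q library was above the 3 others of that experiment, unlike the other experiments. The difference of 72Q control against 25Q was -0.38 (95% interval -0.81 to 0.044, adjusted p = 0.119), and without the 25Q library of exp107 it was -0.53 and passed (adjusted p = 0.0473). Relative to the 72Q control, Tac1 rose by 0.98 ± 0.19 (SE, adjusted p = 0.000104) with shRNA 2 and by 0.53 ± 0.20 (SE, adjusted p = 0.0319) with shRNA 1. The shRNA 1 call ended without any of 4 libraries, shRNA 1 of exp109a or exp109b and 72Q control of exp108 or exp109b (log2 fold changes 0.39 to 0.56, adjusted p = 0.0514 to 0.159). It ended also without the experiment block (log2 fold change 0.53, adjusted p = 0.0906). Against 25Q, Tac1 was higher with shRNA 2 by 0.60 ± 0.18 (SE, adjusted p = 0.00576), in 3 of 4 experiments. That call ended without the 25Q library of exp107 (log2 fold change 0.46, adjusted p = 0.0519). With shRNA 1 the difference from 25Q was 0.15 (95% interval -0.25 to 0.55, adjusted p = 0.537), and it passed without the 25Q library of exp108, at 0.46 (adjusted p = 0.036).

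Set directly against each other, the hairpins differed at 4 of 9 members, and each of those was lower with shRNA 1 than with shRNA 2. This stands beside 25.9% of tested genes called lower, 27.3% called higher and 53.2% in either direction. The 4 were Drd2, Adora2a, Pde10a and Tac1 (-0.45 ± 0.18 (SE, adjusted p = 0.0348)). The Tac1 call ended without any of 6 libraries, shRNA 1 of exp107, exp108 or exp109a and shRNA 2 of exp107, exp109a or exp109b (log2 fold changes -0.46 to -0.36, adjusted p = 0.0618 to 0.131). It ended also in DESeq2 (log2 fold change -0.47, adjusted p = 0.0723) and without the experiment block (log2 fold change -0.45, adjusted p = 0.109). For the other 5 members the interval of the difference was 0.034 to 0.57 for Drd1, -0.33 to 1.09 for Gpr6 and -0.20 to 0.25 for Ppp1r1b. It was -0.054 to 0.52 for Penk and -0.52 to 0.33 for Pdyn. The difference between hairpins at Twist1 itself was -0.066 (95% interval -0.53 to 0.39, adjusted p = 0.826). The Drd1 difference passed without the 72Q control library of exp107, exp108 or exp109a (log2 fold changes 0.30, adjusted p = 0.0379 to 0.0495). The Gpr6 difference passed with no filter on low counts (log2 fold change 0.39, adjusted p = 0.014) and in the fit to only the groups compared (log2 fold change 0.40, adjusted p = 0.0162).

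Relative to 25Q cells, members were called in both directions. With shRNA 1, 6 members were called lower and 1 higher, where 29.4% of tested genes were lower, 28.1% higher and 57.4% either. With shRNA 2, 3 were lower (Drd1, Gpr6 and Pdyn) and 3 higher (Penk, Tac1 and Adora2a), where 31.8% of tested genes were lower, 31.4% higher and 63.3% either. The Adora2a difference from 25Q was 0.39 ± 0.16 (SE, adjusted p = 0.0399) with shRNA 2 and -0.53 ± 0.18 (SE, adjusted p = 0.0153) with shRNA 1. The shRNA 2 call ended without any of 6 libraries, shRNA 2 of exp107, exp109a or exp109b and 25Q of exp107, exp108 or exp109a (log2 fold changes 0.27 to 0.41, adjusted p = 0.0502 to 0.198). It ended also in DESeq2 (log2 fold change 0.40, adjusted p = 0.0788), without the experiment block (log2 fold change 0.37, adjusted p = 0.344) and with a block by the titles' numbers (0.35, adjusted p = 0.23). Without scaling beyond library totals it was 0.59 (adjusted p = 0.00198). The shRNA 1 call ended without shRNA 1 of exp108 (log2 fold change -0.40, adjusted p = 0.107) or 25Q of exp109b (log2 fold change -0.44, adjusted p = 0.0583). It ended without the block too (log2 fold change -0.52, adjusted p = 0.223), with a block by the titles' numbers (-0.55, adjusted p = 0.09) and without scaling beyond library totals (-0.41, adjusted p = 0.0551). Without the 25Q library of exp107, 3 members were called with shRNA 2 against 25Q.

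**Figure D3:**
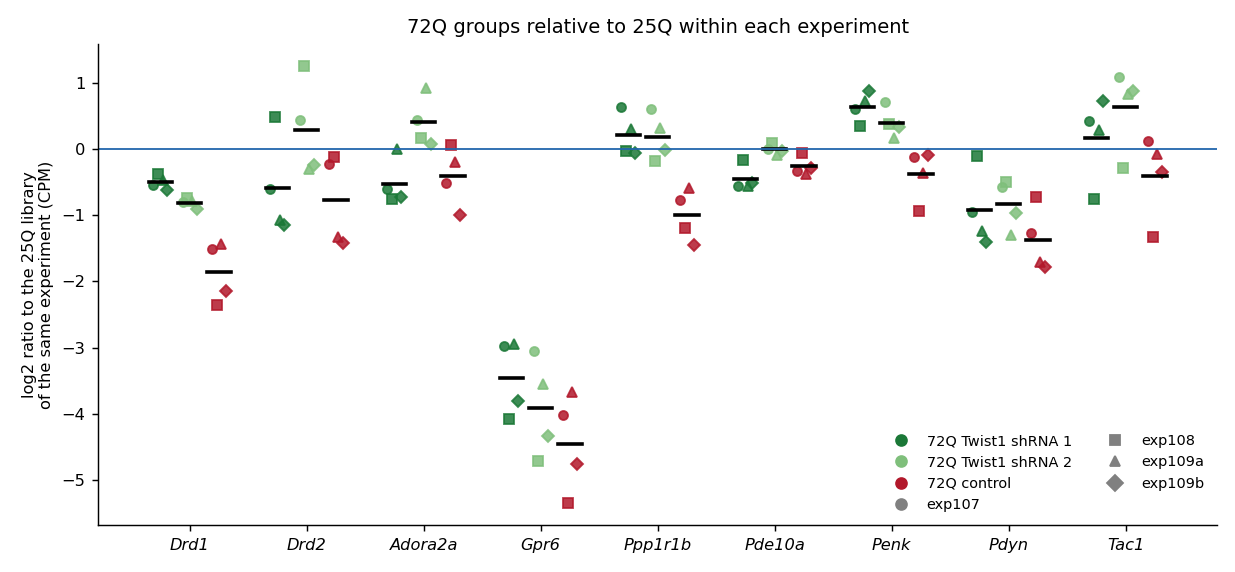
Log2 ratio of TMM-scaled CPM in each 72Q library to the 25Q library of the same experiment, for the 9 genes; colours are the 3 groups with 72Q, marker shapes the experiments, black bars the mean, and the line at 0 the 25Q level. Gpr6 lies far below 0 in all 3 groups, and the exp108 points of Drd2 lie above 0 with either hairpin.

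The genes around the members were read from 8 lists that exclude them. Their counts stand beside 29.3% of all tested genes called higher and 27.8% called lower in 72Q control against 25Q. With shRNA 1 these shares were 22.7% higher and 23.6% lower, and with shRNA 2 they were 20.2% and 21.5%. Splits near these shares are not particular to a list. Of genes for G protein and cyclic AMP transduction, 27 of 28 listed were matched and tested. In 72Q control against 25Q, 3 were higher and 19 lower (median log2 fold change -0.34). Among the lowest were Rgs4 and Rgs2, which speed the turn-off of G proteins. Rgs4 averaged 46.2 CPM in 72Q control and 279.5 CPM in 25Q libraries, a log2 fold change of -2.65 (adjusted p = 1.95e-06). Rgs2 stood at -1.30 (adjusted p = 8.77e-08). The constitutively active receptor Gpr3, a relative of Gpr6, went the other way, at 0.89 (adjusted p = 1.31e-05), as did the protein kinase A regulatory subunits Prkar1a at 0.24 (adjusted p = 2.55e-05) and Prkar2a at 0.14 (adjusted p = 0.0138). With shRNA 1, 12 of the 27 rose and 6 fell, and with shRNA 2, 7 rose and 8 fell. Without scaling beyond library totals the shRNA 2 split was 10 and 7. Without the experiment block 6 rose and 5 fell with shRNA 1, and 4 rose and 5 fell with shRNA 2. Rgs4 rose with shRNA 1 at 0.73 (adjusted p = 0.0186), while its shRNA 2 value was 0.24 (adjusted p = 0.419). The Prkar2a call ended without 25Q of exp107 or exp108 (log2 fold changes 0.12 to 0.13, adjusted p = 0.0515 to 0.0646) and without the experiment block (adjusted p = 0.17). The Rgs4 rise ended without shRNA 1 of exp109a or the 72Q control of exp108 or exp109b (log2 fold changes 0.63 to 0.70, adjusted p = 0.0507 to 0.0624). It ended also without the experiment block (adjusted p = 0.0554).

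Among 12 other cyclic nucleotide phosphodiesterases, 3 were higher and 5 lower in 72Q control against 25Q, and without scaling beyond library totals the split was 6 higher and 4 lower. The calmodulin-dependent enzymes split, with Pde1a at -1.14 (adjusted p = 4.85e-16), Pde1b at -0.55 (adjusted p = 1.33e-07) and Pde1c at 1.26 (adjusted p = 1.68e-09). Pde1a averaged 88.9 CPM with shRNA 1 and 85.4 CPM with shRNA 2, against 48.4 CPM in the 72Q control, and rose with both. Its log2 fold change was 0.88 (adjusted p = 1.45e-13) for shRNA 1 and 0.81 (adjusted p = 1.33e-12) for shRNA 2. Pde1b rose with shRNA 1 at 0.75 (adjusted p = 5.13e-10), and with shRNA 2 it was at -0.0056 (adjusted p = 0.962). In all, 4 rose and 1 fell with shRNA 1, and 2 rose and 4 fell with shRNA 2, where without scaling beyond library totals 3 rose and 2 fell. Of 14 tested phosphatase and DARPP-32-type genes, 2 were higher and 9 lower in 72Q control. The lowest were Arpp21, a cyclic AMP-regulated phosphoprotein (-1.99 (adjusted p = 1.67e-08)), Cdk5r1, the activator of Cdk5 (-0.86 (adjusted p = 6.73e-15)), and Ppp3ca, the catalytic subunit of calcineurin (-0.82 (adjusted p = 1.9e-13)). Without scaling beyond library totals 5 were higher and 9 lower. With shRNA 1, 8 of the 14 rose and none fell, and with shRNA 2, 5 rose and 4 fell. The shRNA 2 split was 5 higher and 1 lower without scaling beyond library totals, and 4 higher and 1 lower without the experiment block, where 5 rose and none fell with shRNA 1. Ppp3ca rose with each hairpin, where shRNA 1 gave 0.57 (adjusted p = 5.28e-10) and shRNA 2 gave 0.29 (adjusted p = 7.02e-05).

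Of 13 tested precursors of other neuropeptides, 3 were higher and 8 lower in 72Q control against 25Q (median log2 fold change -0.91). The lowest were Vip at -1.57 (adjusted p = 1.24e-05), Cartpt at -1.41 (adjusted p = 0.000627) and Cck at -1.33 (adjusted p = 5.07e-06), and the highest were Gal at 1.16 (adjusted p = 2.97e-05), Nxph4 at 0.75 (adjusted p = 0.000158) and Pomc at 0.67 (adjusted p = 0.0198). The Pomc call ended without the 72Q control of exp109b or 25Q of exp108 or exp109b (log2 fold changes 0.37 to 0.49, adjusted p = 0.122 to 0.221) and without the experiment block (adjusted p = 0.0712). With shRNA 1, 6 rose and 2 fell, and with shRNA 2, 5 rose and none fell. Cck averaged 90.3 CPM with shRNA 1 and 56.1 CPM with shRNA 2, against 50.7 CPM in the 72Q control, and passed with shRNA 1 (0.83 (adjusted p = 0.000333)). Peptide processing and granule genes gave 2 higher and 5 lower of 11 in 72Q control, and 6 higher and 3 lower without scaling beyond library totals. The convertases moved apart, with Pcsk1 at 0.60 (adjusted p = 9.45e-06) and Pcsk2 at -1.01 (adjusted p = 1.29e-13). With shRNA 1, 3 of the 11 rose and 4 fell, and with shRNA 2, 4 rose and 4 fell. Without the experiment block 1 rose and 3 fell with shRNA 2. Of 5 tested opioid and tachykinin receptors, 2 were higher and 1 lower in 72Q control. The delta receptor Oprd1, which binds enkephalins, was at -0.52 (adjusted p = 9.6e-05), and the mu receptor Oprm1 at 0.81 (adjusted p = 0.00162). With shRNA 1, 3 rose and 1 fell, and with shRNA 2, 1 rose and 1 fell. Without the experiment block neither call held in 72Q control (adjusted p = 0.0639 for Oprd1 and 0.127 for Oprm1). In that fit 1 receptor rose and 1 fell with shRNA 1, and 1 rose and none fell with shRNA 2.

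Of 6 tested genes among the other dopamine receptors and the enzymes and transporters of dopamine, 2 were higher and none lower in 72Q control against 25Q. They were Ddc, which makes dopamine (0.64 (adjusted p = 0.032)), and Maoa, which breaks it down (0.41 (adjusted p = 2.74e-07)). The Ddc call ended without any of 5 libraries, the 72Q control of exp107, exp109a or exp109b and 25Q of exp107 or exp109a (log2 fold changes 0.51 to 0.63, adjusted p = 0.0634 to 0.131). It ended also in DESeq2 (log2 fold change 0.73, adjusted p = 0.103). With shRNA 1 none of the 6 rose and 3 fell, and with shRNA 2, 2 rose and none fell. Of 18 tested transcription factors of striatal projection neurons, 9 were higher and 5 lower in 72Q control. In the fit to only the groups compared, 16 were tested, with 7 higher and 5 lower. The largest rises were Ebf1 at 3.31 (adjusted p = 4.8e-11) and Gsx2 at 1.38 (adjusted p = 6.52e-06), with Isl1. Ebf1 averaged 2.07 CPM in 72Q control and 0.106 CPM in 25Q libraries. Isl1 averaged 0.83 CPM in 72Q control and had 0 counts in 25Q libraries, a count that allows up to 0.042 CPM over the group. Ebf1 and Isl1 thus passed the filter on low counts through groups other than 25Q. The falls were led by Foxp1 at -1.48 (adjusted p = 1.76e-11), Bcl11b at -0.68 (adjusted p = 1.29e-10) and Dlx1 at -0.54 (adjusted p = 1.83e-07). With shRNA 1, 2 rose and 7 fell, including Ebf1 at -1.81 (adjusted p = 1.37e-07), and with shRNA 2, 1 rose and 2 fell, or 2 rose and 1 fell without scaling beyond library totals. Bcl11b and the Dlx genes also mark cortical and GABAergic neurons.

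**Figure D4:**
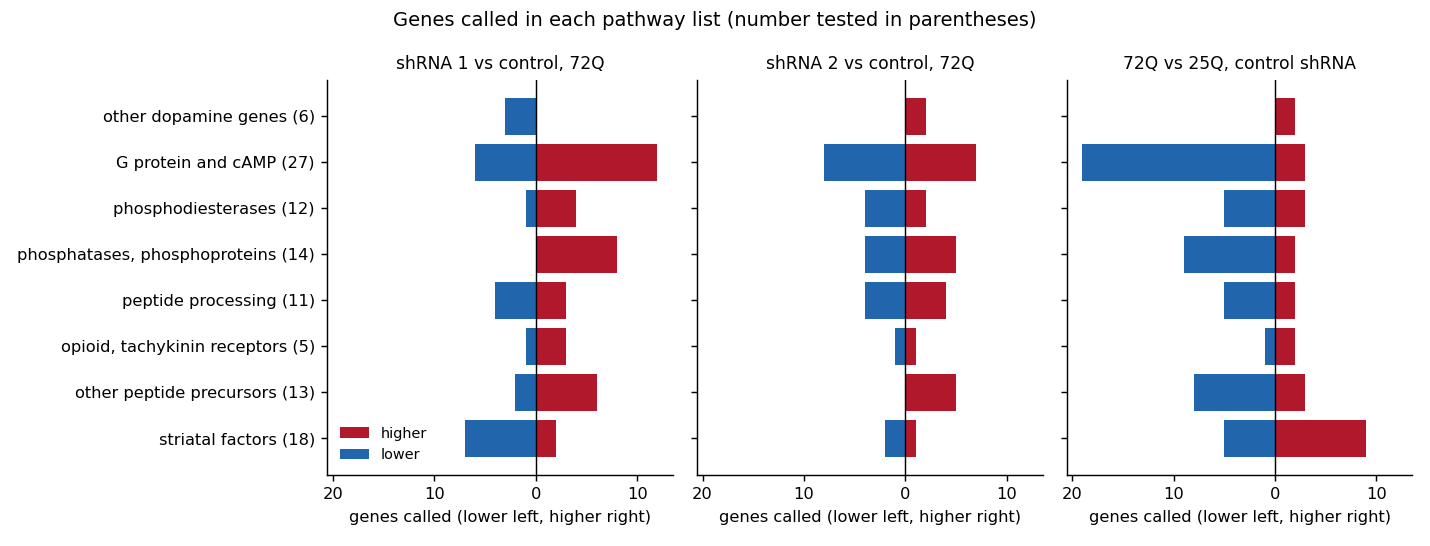
Number of genes called higher (right of 0) and lower (left of 0) in each of the 8 lists around the members, for shRNA 1 and shRNA 2 against control in 72Q cells and for 72Q against 25Q cells with control shRNA; the number tested stands in parentheses. In the last panel the G protein and cyclic AMP list has 19 lower and 3 higher.

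Cell type markers moved beside the members. Their calls stand beside 29.3% of tested genes called higher and 27.8% called lower in 72Q control against 25Q. With shRNA 1 these shares were 22.7% higher and 23.6% lower, and with shRNA 2 they were 20.2% and 21.5%. Summed over 10 markers, all tested, cortical excitatory genes lay at 708 to 945 CPM in 72Q control and 1474 to 1591 CPM in 25Q libraries, with 9 lower and 1 higher. The 11 GABAergic markers summed to 529 to 799 CPM in 72Q control and 759 to 1005 CPM in 25Q libraries, with 8 lower and 1 higher. The 9 pan-neuronal markers summed to 6747 to 7784 CPM in 72Q control and 9481 to 10516 CPM in 25Q libraries, with 6 lower and none higher. Other markers of striatal projection neurons, 12 in number, summed to 643 to 844 CPM in 72Q control and 1071 to 1161 CPM in 25Q libraries, with 5 higher and 6 lower. The 8 astrocyte markers summed to 2581 to 2976 CPM in 72Q control and 2456 to 2686 CPM in 25Q libraries, with 4 higher and none lower. The 7 neural progenitor and cycling markers summed to 199 to 271 CPM in 72Q control and 164 to 239 CPM in 25Q libraries, with 5 higher and none lower. Microglial markers summed to at most 12.9 CPM and endothelial, mural and meningeal markers to at most 30.1 CPM in any library. With the hairpins, excitatory markers summed to 971 to 1158 CPM with shRNA 1 and 762 to 922 CPM with shRNA 2, beside the 72Q control range above. Against the 72Q control, 3 of the 10 were higher and 3 lower with shRNA 1, and 2 higher and 2 lower with shRNA 2. Slc17a7 alone averaged 470 CPM with shRNA 1, against 262 CPM in the 72Q control. Pan-neuronal markers gave 3 higher and 1 lower with shRNA 1, and 2 higher and 5 lower with shRNA 2. GABAergic markers gave 4 higher and 4 lower with shRNA 1, and 3 higher and 2 lower with shRNA 2. The 12 other striatal projection neuron markers summed to 768.5 to 858 CPM with shRNA 1, with 5 higher and 4 lower. With shRNA 2 these 12 summed to 551.5 to 663 CPM, with 1 higher and 3 lower. Oligodendrocyte lineage markers summed to 870 to 971 CPM with shRNA 1 and 747 to 867 CPM with shRNA 2, against 1054 to 1192 CPM in the 72Q control. Progenitor and cycling markers summed to 202 to 243 CPM with shRNA 1 (none higher and 3 lower than in the 72Q control) and 159 to 211 CPM with shRNA 2 (none higher and 5 lower). Astrocyte markers summed to 2732 to 2954 CPM with shRNA 1 (1 higher and none lower) and 2121 to 2692 CPM with shRNA 2 (none higher and 5 lower). The part of these marker changes in the members' changes was not tested.

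Genes whose levels followed a member most closely were named by Pearson correlation of log2 CPM over the 16 libraries, as a description without a test, since the libraries share groups and experiments. Gpr6 was followed by Bhlhe22, a transcription factor of cortical neurons, at r = 0.996 and Usp43 at r = 0.991. Bhlhe22 averaged 52.9 CPM with shRNA 1, 43.7 CPM with shRNA 2, 37.3 CPM in 72Q control and 194 CPM in 25Q libraries. Drd1 was followed by Fam135b (r = 0.966) and Satb1 (r = 0.965), the second a chromatin organiser of cortical neurons. Satb1 averaged 102 CPM with shRNA 1, 95.4 CPM with shRNA 2, 60.9 CPM in 72Q control and 131 CPM in 25Q libraries. Ppp1r1b was followed by Zmat4 (r = 0.949) and Cyb5b (r = 0.935), and Pde10a by Mn1 (r = 0.946) and Usp15 (r = 0.929). Adora2a was followed by Slc2a1, the glucose transporter GLUT1 (r = 0.898), and Scd1 (r = 0.859), and Drd2 by Snhg14 (r = 0.859) and Eny2 (r = 0.834). Penk was followed by Nr3c2, the mineralocorticoid receptor (r = 0.919), and Opa1 (r = 0.914). Pdyn was followed by Rab11fip4 (r = 0.923) and Csmd1 (r = 0.923), and Tac1 by Mtrex (r = 0.885) and Rspo1 (r = 0.883).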

How the data were processed

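The authors deposited 1 file per library with raw counts per Ensembl gene, CPM and RPKM, per the file headers. Reads were aligned with STAR 2.0.4b and counted with featureCounts 1.45 of Subread on GRCm38, per the submitters' processing notes, after Ribo-Zero depletion per the labels' protocols. The sources used here do not give the annotation release or strand setting. The deposited CPM equalled the counts over the library total within 2.5e-11, and the deposited RPKM equalled CPM per kilobase within 4e-11. Library totals lay between 15814525 and 19533034 counts. Gene symbols came from GENCODE M21 and matched 40254 of 41388 genes.

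Counts were tested with edgeR 4.0.16 in R 4.3.3 across all genes. The steps were filterByExpr by group (15103 genes kept), TMM factors, and a robust quasi-likelihood fit of the 16 libraries on group and experiment. Benjamini-Hochberg adjustment ran over all genes tested, with a threshold of 0.05. CPM in the text are TMM-scaled, and RPKM are those per kilobase of deposited gene length. Log2 fold changes use a prior count of 2. The SE was calculated back from the test, as the absolute log2 fold change over the square root of its F. The 95% intervals use this SE with a t distribution. The common biological coefficient of variation was 5.24%. The experiment label pairs libraries across groups, per the labels' descriptions. Deviations from group means correlated at 0.223 to 0.612 in all 24 same-experiment pairs. In pairs of different experiments they correlated at -0.333 to 0.278 (median -0.168), so the ranges overlapped. Deviations of a group sum to 0, so positive same-experiment values go with negative ones elsewhere. Replicates of 1 group differed beyond counting noise (chi-square per degree of freedom 2.85 to 22.7).

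The alternatives were no block, a block by the titles' numbers, upper-quartile factors, no scaling, DESeq2 1.42.0, no count filter, only the groups compared, and each library left out. Up to 3 genes of a list per direction were named by size of change between 72Q control and 25Q, and the 2 genes most correlated with each member among those with a mean of at least 1 CPM. One gene that this rule names is not reported here. The members and the gene lists were chosen with earlier results of these data known.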

Additional observations from a re-analysis of the deposited data

Results flagged for a closer look

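In groups of 4 libraries, a library was singled out where its gap to the nearest other one took a larger share of the group's range than Dixon's critical value at the 95% level, which chance passes in a small share of groups. The rule was applied to 4 groups for each of the 9 members, and 2 met it, a number that chance can give. The 72Q control library of exp109a stood highest for Ppp1r1b at 5.65 CPM, where the other 3 lay between 3.50 and 3.78 CPM, with a gap of 0.871 of the range. The shRNA 2 library of exp107 stood highest for Penk at 5.43 CPM, where the other 3 lay between 3.18 and 3.43 CPM, with a gap of 0.890 of the range.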

How the results depend on the processing

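Over 1242 member values under the alternatives, 1171 kept their side of the threshold, 40 lost a call, 30 gained one and 1 reversed. Of the 1242, 864 came from leaving out 1 library, and 824 of those kept their side. Many of these left out a library of neither group compared, which acts only through the shared fit and can change little. Of the 378 values under the other settings, 347 kept their side. Changes of direction where neither fit passed are among the 1171. Adora2a with shRNA 1 against the 72Q control, for example, ranged from -0.32 to 0.074 on the log2 scale. A reversal here is a change of direction with a call in either fit. The reversal was Pde10a with shRNA 2 against 25Q, which without scaling beyond library totals was 0.20 (adjusted p = 0.00106). The count of called genes without the experiment block (no replicate block) was 4561 for shRNA 1 and 3621 for shRNA 2 against the 72Q control, where the fit with the block gave 6999 and 6307 in that order, and 3 members passed with shRNA 1 where 5 did with the block. Leaving out 1 library at a time gave 3 to 6 members called with shRNA 2 against 25Q, the lowest without the 25Q library of exp107. Without scaling, the median of all genes moved by 0.133 for 72Q control against 25Q, 0.124 for shRNA 1 against 25Q and 0.205 for shRNA 2 against 25Q. The share of called genes that were higher in 72Q control than in 25Q was 51.4% with TMM factors and 69.7% without scaling. With shRNA 2 against the 72Q control it was 48.5% with TMM factors and 65.3% without scaling, and with shRNA 1 against shRNA 2 it was 51.3% and 36.5% under the same settings. Against 25Q it was 48.9% and 66.5% with shRNA 1 and 49.7% and 72.3% with shRNA 2, and upper-quartile factors gave 61.2% with shRNA 1 and 61.5% with shRNA 2. The cause of these changes was not tested. The smallest count behind a member was 12 reads (Pdyn).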
